A study of Mus musculus with 15 samples.

Results

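The homing and adhesion receptors examined here are 7 genes whose products guide blood stem and progenitor cells into the bone marrow and hold them there: Cxcr4, Itga4, Itga5, Itgb1, Itgal, Itgb2 and Selplg. They were chosen for their role in marrow engraftment, and every probe set annotated with exactly 1 of these symbols was kept whatever its level, which gave 20 of the 45101 probe sets on the array and 7 of its 18194 genes. Itgb1 was measured by 6 probe sets, Itga4 by 5, Itga5 by 4 and Itgal by 2. Cxcr4, Itgb2 and Selplg had 1 probe set each. No filter on level was applied, so all 20 were tested.

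The study asked how graded Wnt signalling acts on blood progenitors, using mouse LSK cells (lineage-negative, Sca-1-positive, Kit-positive cells, the marrow fraction that holds the stem cells) with different alleles of Apc, a negative regulator of Wnt signalling. The cells came from C57BL6 mice of 4 Apc genotypes: wt/wt, 15lox/15lox, 15lox/1572T and 15lox/1638N, where 15lox is a floxed allele and 1572T and 1638N are hypomorphic alleles. Cells of every genotype, wild type included, were infected outside the animal with a gamma-retrovirus, MSCV-Cre-IRES-GFP, and kept in Stemspan medium with mFlt3L, mTpo and mSCF, and the GFP-positive cells were sorted for RNA. Each mutant genotype had 3 arrays, and wild-type arrays 4 to 6 served as the 3 controls. The labels do not give the animals' age, or say whether the arrays of a genotype came from separate animals, so each p-value reflects the scatter among these arrays, which may be technical, and precision is bounded by how few arrays there are.

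Cxcr4 is the receptor for the chemokine Cxcl12, which marrow stroma releases, and its signal draws circulating progenitors towards the marrow and switches their integrins to the binding state. Integrins are pairs of an α and a β chain: α4 (Itga4) with β1 (Itgb1) forms VLA-4, which binds Vcam1 on marrow vessels and stroma, α5 (Itga5) with β1 forms VLA-5, which binds fibronectin, and αL (Itgal) with β2 (Itgb2) forms LFA-1, which binds the Icam proteins. Selplg encodes PSGL-1, the sugar-bearing ligand by which cells roll on selectins before they arrest.

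Apc itself was lowest in the 15lox/15lox arrays at probe set 1420956_at, with levels of 5.58 to 6.10 on the deposited log2 scale against 9.61 to 9.93 in wild type, a fall of 3.96 (limma, Benjamini-Hochberg adjusted p = 8.9e-07). It fell by 1.20 in 15lox/1638N (adjusted p = 0.00296) and differed by -0.93 in 15lox/1572T (adjusted p = 0.103), and the 4 Apc probe sets did not all move one way, with 1435543_at higher by 0.77 in 15lox/15lox (adjusted p = 0.0133). Ly6a, which encodes the LSK marker Sca-1, had no probe set of 1 symbol, and the mean of the 4 LSK markers used (Kit, Cd34, Flt3 and Ptprc) was 12.30 to 12.44 in wild type and 12.12 to 12.50 over the mutant arrays. T-cell and neutrophil lists lay at 5.00 to 5.78 over the 12 arrays and B-cell, erythroid and stromal or endothelial lists at 5.08 to 7.41, whereas megakaryocyte and mast-cell or basophil lists lay at 9.60 to 12.03. These are list means. In wild type the B-cell list averaged the bright Cd79b (11.51) with Cd79a (5.75) and Ms4a1 (4.86), and the erythroid list averaged Klf1 (8.03) with Hba-a1 (4.69). Array medians ran from 6.65 to 6.84. By their Xist level, 2 of the 15lox/15lox arrays, 1 of 15lox/1638N and 1 of 15lox/1572T were of the female type and none of the 3 controls was.

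None of the 20 receptor probe sets passed an adjusted p of 0.05 in any of the 6 comparisons between genotypes, in a limma fit of all 12 arrays with the adjustment over all probe sets. Of all probe sets, 1.49% passed for 15lox/15lox against wild type, 1.38% for 15lox/1638N and 0.0288% for 15lox/1572T. Between mutants, 0.186% passed for 15lox/15lox against 15lox/1638N, 1.00% for 15lox/15lox against 15lox/1572T and 0.171% for 15lox/1638N against 15lox/1572T. At shares this low, 0 of 20 does not set the receptors apart from the other probe sets. At an unadjusted p under 0.05 there were 5 of 20 receptor probe sets for 15lox/15lox against wild type, 4 for 15lox/1638N and 1 for 15lox/1572T, where 10.2%, 16.0% and 6.84% of all probe sets did so. The median difference over the 20 was -0.08, 0.01 and -0.00 in that order, beside -0.03, -0.00 and -0.01 over all probe sets. Probe sets of the same gene are not independent readings, and both Itgal probe sets were among the 5 of 15lox/15lox. With all 6 wild-type arrays as controls, 2 receptor probe sets passed for 15lox/15lox, 3 for 15lox/1638N and 0 for 15lox/1572T, where 4.33%, 8.67% and 0.627% of all probe sets passed. At 96.7% of probe sets, wild-type arrays 1 to 3 had the same mean as arrays 4 to 6 to within 0.05, so the 6 arrays cannot be taken as 6 independent readings of the control mean, and p-values from all 6 may be too small.

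**Figure D1:**
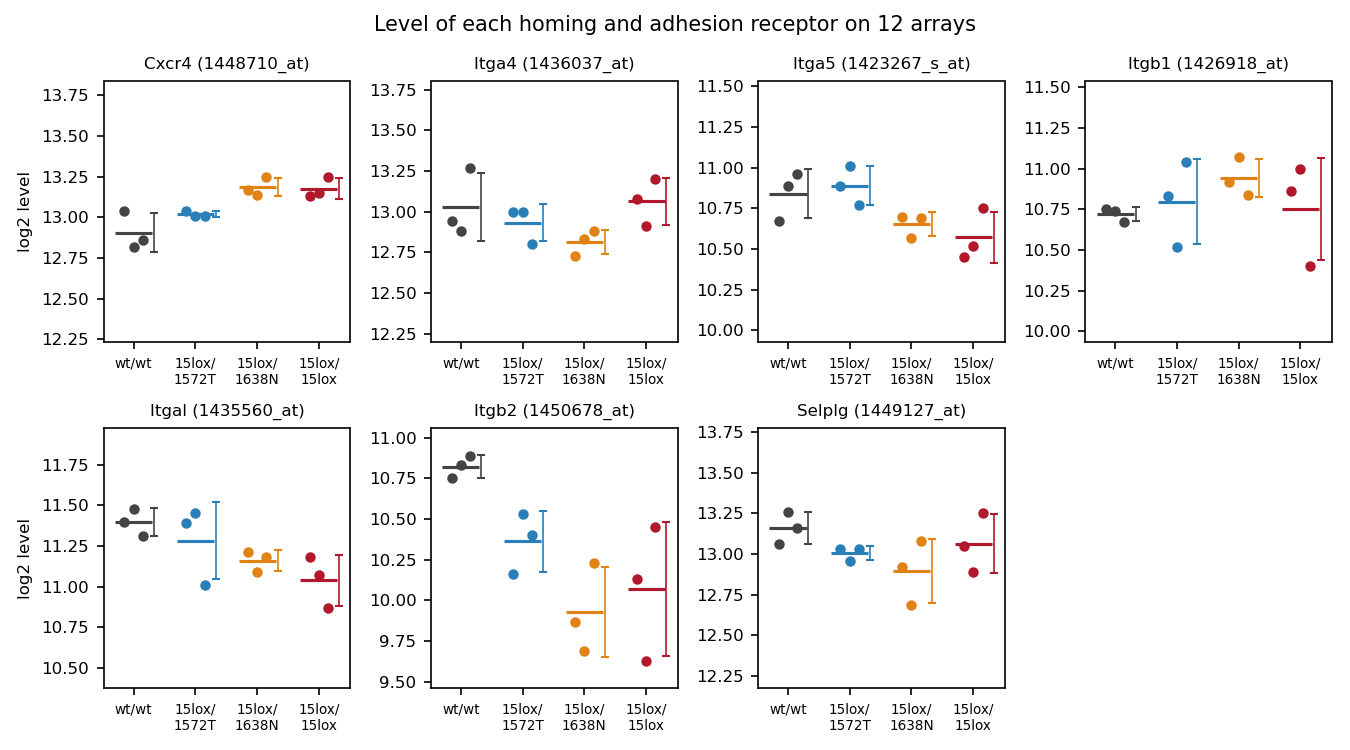
Log2 level of the 7 receptors, each at its probe set of highest mean, by Apc genotype. Points are single arrays (3 per genotype, controls being wild-type arrays 4 to 6), horizontal lines are means and bars are 1 SD. All panels span the same number of log2 units, so distances can be compared between genes but levels cannot. Itgb2 was below every control array on all 9 mutant arrays, and the share of all probe sets that did so was not computed.

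Cxcr4, the chemokine receptor, was among the brighter signals on the array, at the 97th percentile of probe set means. Its level was 13.04, 12.82 and 12.86 on the wild-type arrays, 13.04, 13.01 and 13.01 on the 15lox/1572T arrays, 13.17, 13.14 and 13.25 on the 15lox/1638N arrays and 13.13, 13.15 and 13.25 on the 15lox/15lox arrays. Every 15lox/15lox and 15lox/1638N array lay above every wild-type and every 15lox/1572T array, while the 15lox/1572T arrays lay in the upper part of the wild-type range. The difference from wild type was 0.27 ± 0.09 (SE, n = 3) in 15lox/15lox, or 1.21-fold, with an interval of 0.08 to 0.46 and an adjusted p of 0.239. In 15lox/1638N it was 0.28 ± 0.09, with an interval of 0.09 to 0.47 and an adjusted p of 0.146. In 15lox/1572T it was 0.11, with an interval of -0.07 to 0.30. Intervals are at 95%. With all 6 wild-type arrays as controls Cxcr4 passed in 15lox/15lox (0.27, adjusted p = 0.0216) and in 15lox/1638N (0.28, adjusted p = 0.0142), p-values that may be too small.

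The promoters of Cxcr4 and Itgb1 are shown because their main probe sets lay above all controls, Cxcr4 on every 15lox/15lox and 15lox/1638N array and Itgb1 on every 15lox/1638N array. Each run is the 250 bases before the gene's start in RefSeq, on the gene's own strand, 5′ to 3′ (build GRCm38.p6). Cxcr4 lies at chr1:128592300-128592549 on the minus strand and Itgb1 at chr8:128685404-128685653 on the plus strand. Capitals mark matches on either strand to the TCF/LEF cores CTTTGA and CTTTGT, the GC box GGGCGG, the ETS core GAGGAA and the TATA box TATAAA.
Cxcr4: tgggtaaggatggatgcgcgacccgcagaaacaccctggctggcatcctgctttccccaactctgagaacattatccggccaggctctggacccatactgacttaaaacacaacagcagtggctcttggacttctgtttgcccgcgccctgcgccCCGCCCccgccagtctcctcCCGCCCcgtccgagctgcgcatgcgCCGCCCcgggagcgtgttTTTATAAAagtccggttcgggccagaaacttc
Itgb1: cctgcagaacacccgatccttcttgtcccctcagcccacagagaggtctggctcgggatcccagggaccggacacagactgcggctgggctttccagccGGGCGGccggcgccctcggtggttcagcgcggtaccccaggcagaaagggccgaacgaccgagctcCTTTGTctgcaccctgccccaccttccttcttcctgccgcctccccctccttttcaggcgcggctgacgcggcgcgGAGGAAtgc
The Cxcr4 window held 3 GC boxes, all on the opposite strand, and a TATA box 30 bases before the start that overlaps its own match on the other strand. It had no match to either TCF/LEF core, the site class through which Wnt signals act. The Itgb1 window held CTTTGT 85 bases before the start, 1 GC box and 1 ETS core. Of the 7 receptors, 4 had an entry in the promoter table. The Itga4 and Itga5 windows held GC boxes and neither TCF/LEF core. Over 32851 promoters of the same length, 27.6% held CTTTGA or CTTTGT (13.8% and 16.5% separately), 32.7% held GGGCGG, 23.3% GAGGAA and 12.4% TATAAA. A match is a run of letters and does not show that a factor binds there. Lack of a match in these 250 bases does not show that a gene has no such site elsewhere.

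Itga4, the α chain of VLA-4, read 12.94, 12.88 and 13.27 in wild type at 1436037_at, 13.00, 13.00 and 12.80 in 15lox/1572T, 12.73, 12.83 and 12.88 in 15lox/1638N and 13.08, 12.91 and 13.20 in 15lox/15lox. The mutant arrays overlapped the controls in all 3 genotypes. Differences from wild type were 0.03 in 15lox/15lox (interval -0.23 to 0.30), -0.22 in 15lox/1638N (-0.48 to 0.05) and -0.10 in 15lox/1572T (-0.36 to 0.17). Every 15lox/15lox array lay above every 15lox/1638N array, by 0.25 on average, with an adjusted p of 0.589. The other 4 Itga4 probe sets followed this one loosely, with Pearson r over the 12 arrays of -0.33 to 0.44, so the 5 probe sets do not give 1 common pattern.

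Itga5, the α chain of the fibronectin receptor, read 10.67, 10.89 and 10.96 in wild type at 1423267_s_at, 10.89, 11.01 and 10.77 in 15lox/1572T, 10.70, 10.57 and 10.69 in 15lox/1638N and 10.45, 10.52 and 10.75 in 15lox/15lox. Only the top 15lox/15lox array overlapped the controls, and every 15lox/15lox array lay below every 15lox/1572T array. The difference was -0.27 ± 0.11 (SE, n = 3) between 15lox/15lox and wild type (interval -0.52 to -0.02, adjusted p = 0.444) and -0.32 between 15lox/15lox and 15lox/1572T (interval -0.57 to -0.07, adjusted p = 0.439). In 15lox/1638N it was -0.19 (-0.44 to 0.06) and in 15lox/1572T 0.05 (-0.20 to 0.30). At 2 other Itga5 probe sets, 1423268_at and 1457561_at, all 15lox/15lox arrays were below the controls, by -0.38 (adjusted p = 0.549) and -0.45 (adjusted p = 0.660), and at 1458996_at the difference was -0.07. These 3 correlated with the main probe set at r = 0.20 to 0.46.

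Itgb1, the β chain shared by VLA-4 and VLA-5, had probe sets that tracked one another, with r of 0.56 to 0.90 against 1426918_at. That probe set read 10.75, 10.74 and 10.67 in wild type, 10.83, 10.52 and 11.04 in 15lox/1572T, 10.92, 11.07 and 10.84 in 15lox/1638N and 10.86, 11.00 and 10.40 in 15lox/15lox. Every 15lox/1638N array was above the controls, and the arrays of the other two mutants fell on both sides of them. The differences were 0.22 (interval -0.14 to 0.58, adjusted p = 0.542), 0.08 (-0.28 to 0.44) and 0.03 (-0.33 to 0.39) for 15lox/1638N, 15lox/1572T and 15lox/15lox. At 1426920_x_at the 15lox/1638N arrays read 6.61, 6.62 and 6.34 against 6.32, 6.19 and 6.04, a difference of 0.34 ± 0.11 (SE, n = 3, adjusted p = 0.154). With all 6 wild-type arrays it was 0.32 (adjusted p = 0.0383), a p-value that may be too small. An x_at probe set can bind related transcripts, so it is less specific to Itgb1.

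Itgb2 showed the widest differences of the 7 genes at their main probe sets. Its level was 10.75, 10.83 and 10.89 in wild type, 10.16, 10.53 and 10.40 in 15lox/1572T, 9.87, 9.69 and 10.23 in 15lox/1638N and 10.13, 9.63 and 10.45 in 15lox/15lox. All 9 mutant arrays lay below all 3 controls, and the 3 mutant genotypes overlapped one another. The share of all probe sets below the controls on all 9 arrays was not computed. For each genotype alone that share was 10.4% (15lox/15lox), 14.2% (15lox/1638N) and 7.88% (15lox/1572T), and the 3 comparisons use the same controls. In 15lox/1638N the difference from wild type was -0.89 ± 0.20 (SE, n = 3), 1.86-fold lower, with an interval of -1.33 to -0.46 and an adjusted p of 0.0562. In 15lox/15lox it was -0.75 ± 0.20, 1.68-fold lower (interval -1.19 to -0.32, adjusted p = 0.125), and in 15lox/1572T -0.46 (interval -0.90 to -0.02, adjusted p = 0.697). The 15lox/1638N and 15lox/1572T means differed by -0.43 (interval -0.87 to 0.00, adjusted p = 0.648), and 15lox/15lox and 15lox/1638N by 0.14 (-0.30 to 0.57).

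The Itgb2 difference in 15lox/1638N stood at the edge of the threshold. It passed under 10 of 23 alternative settings, with adjusted p-values of 0.00493 to 0.230 and differences of -1.04 to -0.77. Settings that passed included a fit of the 2 groups alone (adjusted p = 0.0277) and 1 probe set per gene (adjusted p = 0.0312). All 6 wild-type arrays as controls also passed (adjusted p = 0.00493), a p-value that may be too small. Wild-type arrays 1 to 3 as controls (adjusted p = 0.0784) and quantile normalization (adjusted p = 0.0658) did not. It passed as well without 15lox/15lox array 2 (adjusted p = 0.0223) or 3 (adjusted p = 0.0295), which are not part of this comparison. Without 15lox/1638N array 3, the highest of its group, the adjusted p was 0.0418, without array 1 or 2 it was 0.178 or 0.230, and without any 1 control it was 0.152 to 0.189. In 15lox/15lox the difference passed under 3 of 23, among them all 6 wild-type arrays (-0.74, adjusted p = 0.0157), to which the same limit applies. It was -0.94 (adjusted p = 0.0428) without 15lox/15lox array 3 and -0.53 (adjusted p = 0.388) without array 2. With the sex type as a covariate the differences were -0.90 (adjusted p = 0.0919) and -0.76 (adjusted p = 0.351).

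Itgal, the α chain that pairs with β2, read 11.40, 11.48 and 11.31 in wild type at 1435560_at, 11.39, 11.45 and 11.01 in 15lox/1572T, 11.21, 11.09 and 11.18 in 15lox/1638N and 11.18, 11.07 and 10.87 in 15lox/15lox. All 15lox/15lox and 15lox/1638N arrays lay below the controls. The differences were -0.36 ± 0.13 (SE, n = 3) in 15lox/15lox (interval -0.63 to -0.08, adjusted p = 0.315), -0.24 in 15lox/1638N (-0.51 to 0.04, adjusted p = 0.392) and -0.11 in 15lox/1572T (-0.39 to 0.16). The second probe set, 1425367_at, gave -0.36, -0.24 and -0.25 and followed the first with r = 0.85 over 12 arrays. In these bulk samples fewer cells of a type and less RNA per cell cannot be told apart.

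Selplg, at the 97th percentile of probe set means, read 13.06, 13.26 and 13.16 in wild type, 13.03, 12.96 and 13.03 in 15lox/1572T, 12.92, 12.69 and 13.08 in 15lox/1638N and 13.05, 12.89 and 13.25 in 15lox/15lox. The 15lox/1572T arrays lay just below the controls and the other two genotypes overlapped them. The differences were -0.15 (interval -0.42 to 0.11), -0.26 (-0.53 to 0.00, adjusted p = 0.318) and -0.10 (-0.36 to 0.17) in 15lox/1572T, 15lox/1638N and 15lox/15lox.

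**Figure D2:**
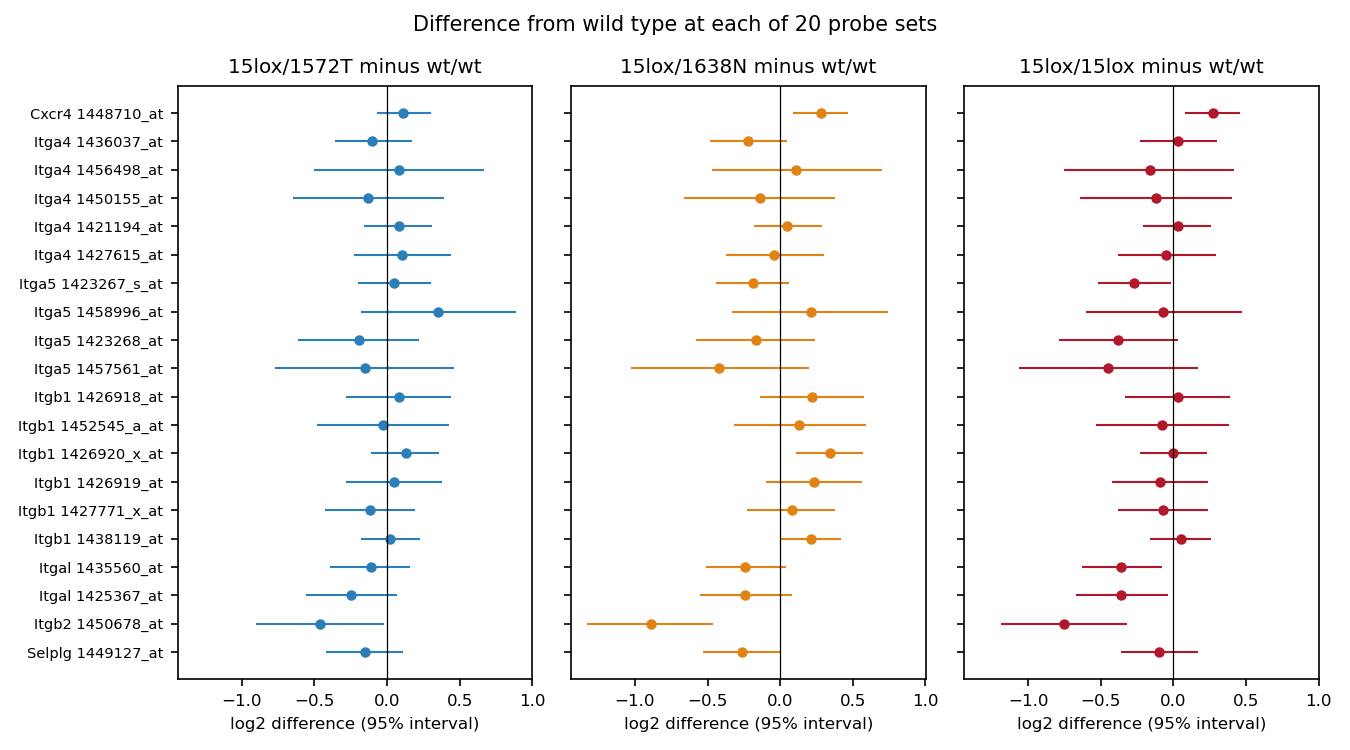
Log2 difference from wild type, with its 95% interval, at each of the 20 receptor probe sets in the 3 mutant genotypes (limma fit of 12 arrays). Itgb2 lay farthest below 0 in 15lox/1638N (-0.89) and 15lox/15lox (-0.75), and Cxcr4 lay above 0 in both (0.28 and 0.27).

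Counted by whether groups overlapped, 1 of the 20 receptor probe sets was above and 4 were below all controls on all 15lox/15lox arrays, where 6.92% and 10.4% of all probe sets did so. For 15lox/1638N 4 were above and 3 below, against 12.3% and 14.2% of all probe sets. For 15lox/1572T 0 were above and 2 below, against 4.74% and 7.88%. The 3 comparisons share their control arrays, and probe sets of the same gene are not independent readings. The 4 above in 15lox/1638N were Cxcr4 and the Itgb1 probe sets 1426918_at, 1426920_x_at and 1438119_at, the last dim at 4.37 in wild type. The 4 below in 15lox/15lox were Itgb2, Itgal at 1435560_at and Itga5 at 1423268_at and 1457561_at. Over the 12 arrays, and as a description only, Itgb2 ran with Selplg (Pearson r = 0.78) and with Itga5 (0.67), and against Cxcr4 (-0.66). The 2 genes whose pattern was most like that of Itgb2 were H2-DMb2 and Adam11 (r = 0.96 each), and for Cxcr4 they were Mgst1 (0.95) and Bace1 (0.93). For Itga4 they were Pcmtd1 and Wdr7 (0.94 each), for Itga5 Myo9b (0.90) and Tmem176a (0.89), and for Itgb1 Hnrnpab and Gopc (0.96 each). For Itgal they were Lrrfip1 (0.94) and Bbs4 (0.93), and for Selplg Bhlha15 (0.96) and Cln3 (0.95).

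Cells of the monocyte lineage carry much β2 integrin, so their markers are given beside Itgb2. The mean of the 3 measured markers (Csf1r, Cd14 and Cx3cr1) was 9.28 to 9.62 in wild type, 10.13 to 10.77 in 15lox/1572T, 10.09 to 10.67 in 15lox/1638N and 9.79 to 10.66 in 15lox/15lox. Of the 3, only Cd14 passed, and it rose by 3.56 in 15lox/1638N (adjusted p = 3.0e-05), by 2.45 in 15lox/15lox (adjusted p = 3.6e-05) and by 2.53 in 15lox/1572T (adjusted p = 0.00116). Csf1r, the receptor for the monocyte growth factor, differed by -0.88, -0.35 and 0.07 in 15lox/1638N, 15lox/15lox and 15lox/1572T, and Cx3cr1 by 0.23, 0.14 and 0.30, so the 3 markers did not move together. The part of such cells in the Itgb2 values was not tested.

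Genes that work with the receptors were read from 5 lists by role, with 73 genes measured. Against wild type 4 rose and 2 fell in 15lox/15lox, beside 1.60% and 0.506% of all 18194 genes, and 2 rose and 1 fell in 15lox/1638N, beside 0.769% and 1.28%. In 15lox/1572T 0 passed, beside 0.0495% of all genes. Between mutants, 0 passed for 15lox/15lox against 15lox/1638N (0.291% of all genes), 3 for 15lox/15lox against 15lox/1572T (1.35%) and 1 for 15lox/1638N against 15lox/1572T (0.264%). The median difference of the 73 was -0.08 in 15lox/15lox, -0.13 in 15lox/1638N and -0.04 in 15lox/1572T, where that of all genes was -0.05, -0.03 and -0.03.

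**Figure D3:**
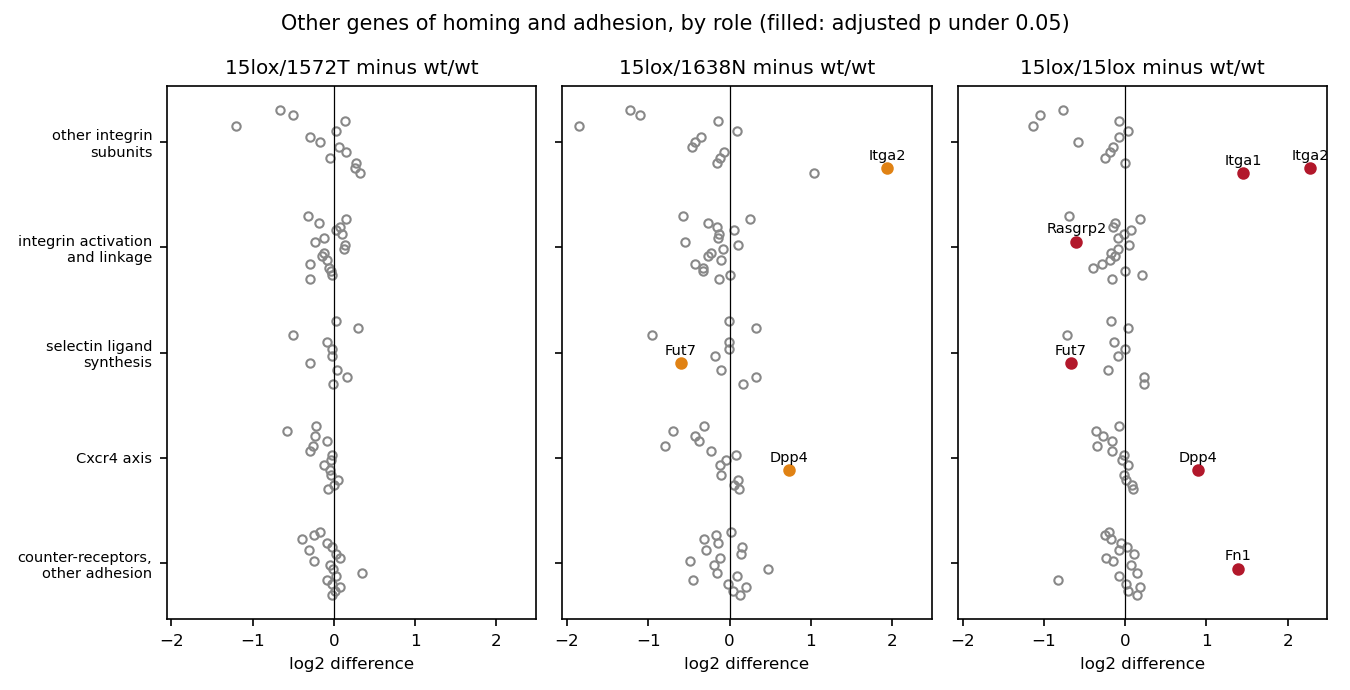
Log2 difference from wild type of 73 partner genes of the receptors, grouped by role, in the 3 mutant genotypes. Filled points passed an adjusted p of 0.05 and are named: 6 in 15lox/15lox, 3 in 15lox/1638N and 0 in 15lox/1572T.

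Of the 13 other integrin subunits, 2 rose in 15lox/15lox and 1 in 15lox/1638N. Itga2, the α chain that pairs with β1 into a collagen receptor, read 5.83, 5.96 and 5.80 in wild type, 5.96, 5.96 and 6.46 in 15lox/1572T, 7.75, 7.73 and 7.94 in 15lox/1638N and 8.46, 8.41 and 7.57 in 15lox/15lox. The 15lox/1638N and 15lox/15lox arrays stood clear of the rest. It rose by 2.28 ± 0.22 (SE, n = 3) in 15lox/15lox, 4.87-fold (adjusted p = 2.2e-04), and by 1.94 in 15lox/1638N, 3.84-fold (adjusted p = 0.00178), and passed under all 23 settings in both. Itga1, the α chain of another β1 collagen receptor, read 8.68, 8.74 and 9.06 in wild type and 10.56, 9.76 and 10.51 in 15lox/15lox, where it rose by 1.45 (adjusted p = 0.0156). That call was lost without control array 4 or 5, without 15lox/15lox array 1 or 3 and with the sex covariate, the largest adjusted p being 0.0887. In 15lox/1638N Itga1 differed by 1.04 (adjusted p = 0.0830).

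The subunits that pair with the receptors' own chains were examined by name after their values were seen. Itgax, an α partner of β2, read 10.41, 11.26 and 10.20 in wild type and 9.29, 7.94 and 9.08 in 15lox/1638N, a difference of -1.85 (adjusted p = 0.0527), with -1.13 in 15lox/15lox (adjusted p = 0.326) and -1.21 in 15lox/1572T (adjusted p = 0.584). All 9 mutant arrays lay below the controls, as for Itgb2, and the share of all probe sets that did so was not computed. Itgb7, the other β partner of α4, read 12.08, 12.42 and 12.23 in wild type and 11.13, 10.54 and 11.38 in 15lox/1638N, a difference of -1.23 (adjusted p = 0.0579), with -0.76 in 15lox/15lox and -0.66 in 15lox/1572T. Itgam, another α partner of β2, was dim, at 4.78 to 5.34 on all 12 arrays. Apart from Itga1 and Itga2, given above, the α partners of β1 on the list did not pass. In 15lox/15lox, 15lox/1638N and 15lox/1572T, Itga6 differed by -0.19, -0.07 and 0.15 and Itgav by 0.03, 0.09 and 0.02. Itga3 differed by -0.25, -0.12 and -0.05 and Itga9 by -0.15, -0.46 (adjusted p = 0.286) and 0.06.

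Among 14 genes of the Cxcr4 axis only Dpp4 passed. Dpp4 encodes a surface peptidase that cuts and inactivates Cxcl12. It read 12.65, 12.45 and 12.54 in wild type, 12.25, 12.76 and 12.48 in 15lox/1572T, 13.19, 13.19 and 13.46 in 15lox/1638N and 13.61, 13.31 and 13.42 in 15lox/15lox, with 15lox/1638N and 15lox/15lox clear of the controls. It rose by 0.90 ± 0.14 (SE, n = 3) in 15lox/15lox (adjusted p = 0.00662) and by 0.73 in 15lox/1638N (adjusted p = 0.0311). Averaging all Dpp4 probe sets gave 1.62 and 1.12. The 15lox/1638N call was lost when any 1 control or 15lox/1638N array was left out (adjusted p up to 0.121).

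Of 10 genes for selectin ligand synthesis, Fut7 fell in both 15lox/15lox and 15lox/1638N. Fut7 encodes the fucosyltransferase that finishes the sugar on PSGL-1. It read 11.78, 11.94 and 11.60 in wild type, 11.39, 11.59 and 11.43 in 15lox/1572T, 11.14, 10.97 and 11.40 in 15lox/1638N and 11.06, 11.09 and 11.17 in 15lox/15lox. Every mutant array thus lay below the controls, and the share of all probe sets that did so was not computed. It fell by 0.67 ± 0.12 (SE, n = 3) in 15lox/15lox (adjusted p = 0.0223) and by 0.60 in 15lox/1638N (adjusted p = 0.0436). The calls held under 16 and 10 of 23 settings, with adjusted p up to 0.113 and 0.181, and both were lost without control array 4 or 5 and without 15lox/15lox array 1 or 2. In 15lox/1638N leaving out control array 6, 15lox/1572T array 1 or 2 or 15lox/1638N array 1 or 2 also ended the call. With the sex covariate neither the 15lox/15lox nor the 15lox/1638N call held (adjusted p = 0.0622 and 0.0606). Neither held with wild-type arrays 1 to 3 as controls (adjusted p = 0.0682 and 0.0938).

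Of 18 genes for integrin activation and linkage, Rasgrp2, the exchange factor that switches on Rap1 ahead of integrin activation, fell in 15lox/15lox. It read 11.55, 11.92 and 11.59 in wild type and 11.12, 11.12 and 11.03 in 15lox/15lox, a fall of 0.60 ± 0.13 (SE, n = 3, adjusted p = 0.0442). It passed under 7 of 23 settings and was lost without any 1 array except 15lox/1638N array 3, with adjusted p up to 0.176. The sex covariate (adjusted p = 0.0847) and wild-type arrays 1 to 3 as controls (adjusted p = 0.0697) ended the Rasgrp2 call too. Of 18 counter-receptors and other adhesion molecules, Fn1, which encodes fibronectin, the ligand of VLA-5, read 6.54, 6.36 and 6.64 in wild type and 7.87, 7.89 and 7.95 in 15lox/15lox. It rose by 1.39 ± 0.19 (SE, n = 3, adjusted p = 0.00237) and passed under all 23 settings, while averaging its probe sets gave 0.75. In 15lox/1638N it differed by 0.47 (adjusted p = 0.246).

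**Figure D4:**
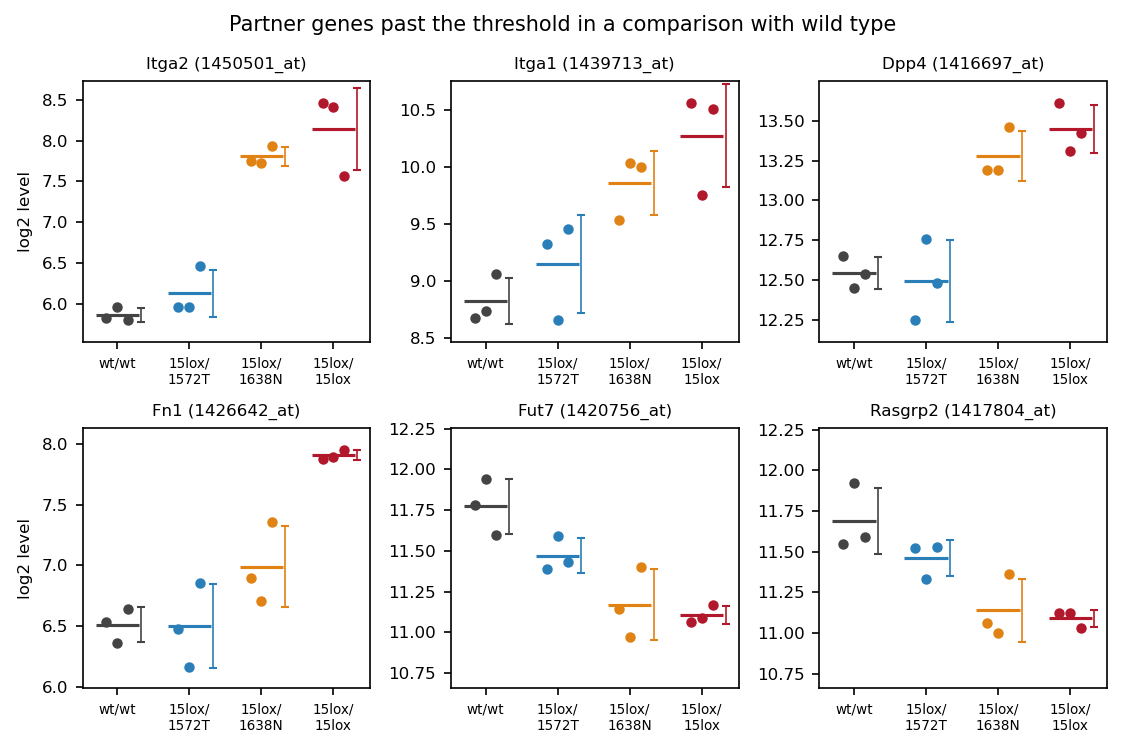
Log2 level of the 6 partner genes that passed in a comparison with wild type, by Apc genotype. Points are single arrays (3 per genotype), lines are means and bars are 1 SD. Itga2 and Dpp4 were above all controls on every 15lox/1638N and 15lox/15lox array, and Fut7 was below all controls on every mutant array. The share of all probe sets that did as Fut7 did was not computed.

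Between mutants, 15lox/15lox was above 15lox/1572T for Itga2 by 2.02 (adjusted p = 6.6e-04), for Fn1 by 1.40 (adjusted p = 0.00278) and for Dpp4 by 0.95 (adjusted p = 0.00574). Itga2 was also higher in 15lox/1638N than in 15lox/1572T, by 1.68 (adjusted p = 0.0107). That call was lost without 15lox/1572T array 1 or 2 or 15lox/1638N array 3. With only the 2 groups fitted, it (adjusted p = 0.0667) and the Dpp4 call (adjusted p = 0.0983) were lost. With the replicate number as a block, Dpp4 differed between 15lox/15lox and 15lox/1572T by 0.95 with an adjusted p of 0.0653, past the threshold no longer. No receptor probe set passed in these comparisons, where the smallest adjusted p among the 20 was 0.439 for 15lox/15lox and 0.648 for 15lox/1638N against 15lox/1572T.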

How the data were processed

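Total RNA of GFP-positive sorted LSK cells was amplified with Nugen Ovation V2, labelled with biotin and hybridised to 1-colour arrays, per the labels' protocols. The authors' deposited values are log2 probe set summaries, as read from their range; the submitters' processing notes name RMA and mm9 without a role or version. A linear model per probe set (45101 in all; lmFit and eBayes of limma 3.58.1, run under R 4.3.3) used 12 arrays of 4 genotypes, with 8 residual degrees of freedom, no covariate and no filter, and two-sided p-values were Benjamini-Hochberg adjusted over all probe sets in each comparison (threshold 0.05). The fit was tested on simulated data. The annotation gave 34958 probe sets 1 symbol and 932 several, and did not list 9211. A gene's main probe set had the highest mean over the 12 arrays. All 7 receptors were named whatever their values; partner genes were named where they passed, at most 8 per comparison, and likeness was ranked by Pearson r. Receptors and lists were chosen with earlier results of these data known. Wild-type arrays 1 to 3 entered alternatives only, as controls alone or with arrays 4 to 6. Between 15lox/15lox and 15lox/1572T, deviations of same-numbered arrays correlated at 0.14 to 0.21, so a fit with the replicate number as a block is also given there. Whether those arrays were paired is not known. The alternatives changed the controls, replicate block, eBayes settings, array weights, level filter (40th percentile), normalization, groups fitted, sex covariate or probe set rule, or left out 1 array.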

Additional observations from a re-analysis of the deposited data

Results flagged for a closer look

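Among the partner genes, 4 differences between mutant genotypes passed the test of the difference itself (limma, adjusted over all probe sets), although both genotypes were set against the same controls. Itga2 was higher in 15lox/15lox than in 15lox/1572T by 2.02 (adjusted p = 6.6e-04) and higher in 15lox/1638N than in 15lox/1572T by 1.68 (adjusted p = 0.0107). Dpp4 and Fn1 were higher in 15lox/15lox than in 15lox/1572T, by 0.95 (adjusted p = 0.00574) and 1.40 (adjusted p = 0.00278). For each of the 4, all 3 arrays of the first genotype lay above all 3 of the second. The Dpp4 call was lost with the replicate number as a block (adjusted p = 0.0653) and with only the 2 groups fitted (adjusted p = 0.0983). The Itga2 call between 15lox/1638N and 15lox/1572T was lost under the same settings (adjusted p = 0.136 and 0.0667). It was also lost without 15lox/1572T array 1 or 2 or 15lox/1638N array 3. No receptor probe set passed between mutants.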

How the results depend on the processing

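No difference of a receptor or partner gene that passed changed direction under any of the 23 settings. The count of receptor probe sets past the threshold, 0 of 20 with the settings of the report, depended on the setting for 15lox/15lox and 15lox/1638N against wild type. With all 6 wild-type arrays it was 2 and 3. For 15lox/1638N it was 1 (Itgb2) with eBayes trend and robust, array weights, the level filter, only the 2 groups fitted, 1 probe set per gene or the mean of probe sets, and for 15lox/15lox it was 1 with array weights. Leaving out 1 array gave 0 to 1 in both.

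Partner genes past the threshold in 15lox/1638N against wild type, 3 in the report, numbered 21 with all 6 wild-type arrays, 16 with array weights, 9 with 1 probe set per gene, 8 with the mean of probe sets, 7 with trend and robust, 6 with the 2 groups alone and 5 with the level filter, and 1 to 6 with 1 array left out. With wild-type arrays 1 to 3 as controls they numbered 2 in 15lox/1638N and 4 in 15lox/15lox. In 15lox/15lox they numbered 3 with the sex covariate and 3 to 6 with 1 array left out, against 6. They rose there to 8 with all 6 wild-type arrays or array weights and to 7 with trend and robust. For 15lox/1572T against wild type all 6 controls gave 1, and for 15lox/15lox against 15lox/1638N all 6 controls or array weights gave 1 and leaving out 1 array 0 to 1. For 15lox/1638N against 15lox/1572T the count was 2 with all 6 controls, trend and robust, array weights, 1 probe set per gene or the mean of probe sets, 0 with the 2 groups alone, and 0 to 1 with 1 array left out. The cause was not tested.

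With the replicate number as a replicate block, and wild-type arrays 1 to 3 as controls because arrays 4 to 6 share no number with the mutants, 5 partner genes passed in 15lox/1638N against wild type and 0 in 15lox/1638N against 15lox/1572T. Itgb2 then differed by -0.87 (adjusted p = 0.0587) in 15lox/1638N and by -0.73 (adjusted p = 0.146) in 15lox/15lox. Arrays of the same number correlated at -0.15 to 0.38 in their deviations from group means and arrays of different numbers at -0.40 to 0.29. Only between 15lox/15lox and 15lox/1572T did all 3 same-number pairs exceed 0.1, and the blocked values are given there. That cut is arbitrary, since the same-number pairs of 15lox/15lox and 15lox/1638N stood at 0.08, 0.37 and 0.38. Elsewhere the numbers were not taken as pairs, and arrays did not always correlate best with their own number (wild-type 1 at 0.29 with 15lox/15lox 2 and -0.15 with 15lox/15lox 1). The block ended the Fut7 calls (adjusted p = 0.113 in 15lox/15lox and 0.105 in 15lox/1638N) and the Rasgrp2 call (0.0995). Between mutants it ended the Itga2 call of 15lox/1638N against 15lox/1572T (0.136) and the Dpp4 call of 15lox/15lox against 15lox/1572T (0.0653). It ended no other partner call.

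Over all probe sets, the count past the threshold ranged over these settings from 346 to 1951 for 15lox/15lox and from 159 to 3912 for 15lox/1638N against wild type (674 and 623 in the report), and from 1 to 283 for 15lox/1572T (13). For 15lox/15lox against 15lox/1638N it ranged from 2 to 220 (84), for 15lox/15lox against 15lox/1572T from 255 to 697 (451) and for 15lox/1638N against 15lox/1572T from 13 to 157 (77). Highest counts came with all 6 wild-type arrays.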
